A study of Mus musculus with 35 samples.

Results

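The enzymes that turn squalene epoxide into cholesterol were followed through a knockdown and re-expression of the RNA-binding protein Chtop in mouse neuroblastoma cells. The 9 genes named for this set are Lss, Cyp51, Tm7sf2, Msmo1, Nsdhl, Hsd17b7, Ebp, Sc5d and Dhcr7. They were chosen by name for their steps in the pathway, with earlier results of these data known. All 9 are among the 9239 genes with deposited counts, and all 9 passed the filter on low counts in every fit.

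Cholesterol is built in the endoplasmic reticulum. The mevalonate arm makes squalene, lanosterol synthase closes the epoxide of squalene into the first sterol, and the later enzymes then remove methyl groups, move a double bond and reduce it. The genes of this pathway are switched on together by the SREBP transcription factors when membrane sterol falls, with the CCAAT-binding factor NF-Y and with Sp1 bound close by. Neural cells make their own cholesterol for growing membranes, and mutations in several of these enzymes cause inherited disorders of development.

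Poly(A) RNA had been sequenced from 35 libraries of N2a Flp-In rtTA cells, a neuroblastoma line that holds the doxycycline-dependent activator rtTA and a docking site for 1 transgene. In the mEx5 line the transgene is a FLAG-tagged Chtop cDNA without exon 5, and in the pEx5 line the cDNA holds exon 5. Control cells received a non-targeting siRNA pool, knockdown cells 1 Chtop siRNA, and rescue cells that siRNA with doxycycline, which induces the siRNA-resistant cDNA. Each control culture was pooled from 2 dishes and each knockdown or rescue culture from 3, harvested at 72 h. Total lysate, nuclei and cytoplasm were taken from each culture, which gives 18 groups of 2 biological replicates, except 1 library for the cytoplasmic pEx5 control. Every rescue library thus also carries the Chtop siRNA, and no library has doxycycline with control siRNA, so doxycycline, the tagged protein and rescue cannot be told apart. In knockdown against control, 1 siRNA stands against a pool and 3 dishes against 2. Loss of Chtop, other effects of that siRNA and the culture set-up cannot be told apart in that comparison. The number of clones behind each line is stated in none of the sources used here.

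The libraries held 20652832 to 36102129 counts in total lysate, 11681781 to 28705620 in nuclei and 19478702 to 40105458 in cytoplasm. Chtop stood at 125 to 139 CPM (counts scaled to a fixed library total) in the total control libraries, 19.8 to 34.7 in the knockdown and 186 to 282 in the rescue, with no overlap between the 3 conditions. In nuclei the same ranges were 94.9 to 129, 57.3 to 70.6 and 222 to 302 CPM, and in cytoplasm 137 to 148, 17.7 to 31.2 and 175 to 203 CPM. Of 10 noradrenergic neuroblastoma markers, 9 had a median of at least 1 RPKM (read density per length of mRNA, scaled to the library's depth) over the 12 total libraries. Their summed level was 1711 to 1880 RPKM in the control, 1408 to 1626 in the knockdown and 1342 to 1523 in the rescue, so control stood above both, and its part in the members' changes was not tested. Markers of other cells summed to at most 0.22 RPKM for fibroblasts, 2.12 for leukocytes (Ptprc was at 0 in all 12), 9.38 for epithelium (from Krt8), 3.19 for endothelium and 8.71 for glia. The endothelial sum, mostly Pecam1, also lay higher in control (1.52 to 3.19) than in knockdown (0.74 to 1.18), and the other sums overlapped between these conditions. The libraries are bulk and the labels mention no spike-in, so fewer cells of a type and less RNA per cell cannot be told apart.

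The promoters were read first, because the set is known for its shared control. RefSeq gives 11 promoter windows for the 9 genes (assembly GRCm38.p6), each from 250 bases before to 50 bases after an annotated start. At least 1 window of every member held CCAAT, the NF-Y box, on either strand, against 44.2% of the 7256 genes of the count table that matched a promoter by symbol and 37.4% of all 32851 windows. GGGCGG, the Sp1 box, was also found in all 9, against 73% of those genes and 35.7% of windows. The sterol regulatory element was searched as TCACNCCAC on both strands. It was in no member window, against 1.42% of those genes and 1.24% of all windows. Its shorter core TCACNCC, which lies inside that element, was found in Msmo1 alone, against 19.3% of those genes and 15.6% of windows. A match describes letters and not binding, and these windows need not hold every control region of a gene. The stretches below are shown because they carry the motif that all 9 share. Each is the match nearest to the annotated start and before it, read 5′ to 3′ along the gene's strand, with CCAAT or its reverse complement in capitals.
Lss CCAAT box, chr10:76531531-76531559, plus strand: ggtgatgctctgATTGGccgagctcgcat
Cyp51 CCAAT box, chr5:4104710-4104738, minus strand: cgctgtccgccaCCAATctggtcctgaga
Tm7sf2 CCAAT box, chr19:6067881-6067909, minus strand: ctcccagcgctgATTGGctactgtgctgg
Msmo1 CCAAT box, chr8:64733617-64733645, minus strand: gagtggggcggaCCAATtacgacaggcga
Nsdhl CCAAT box, chrX:72918489-72918517, plus strand: aagactagcctcATTGGgcaaaatcatgc
Hsd17b7 CCAAT box, chr1:169969206-169969229, minus strand: ggccgagccttgATTGGtcgaggt
Ebp CCAAT box, chrX:8193551-8193579, minus strand: atccctgtactgATTGGttcgtcagattc
Sc5d CCAAT box, chr9:42264308-42264336, minus strand: cgccggctgctgATTGGccggctgcctgc
Dhcr7 CCAAT box, chr7:143830153-143830181, plus strand: aatccacttccgATTGGtcgtctgtgacc
Msmo1 SRE core, chr8:64733738-64733766, minus strand: tctcactattcTCACTCCatccgcgcagc
The last line shows the core of the sterol regulatory element in Msmo1 in capitals, 170 bases before its start. The CCAAT matches lay 7 to 57 bases before the start, nearest in Hsd17b7 and farthest in Lss. Nsdhl held 4 CCAAT matches in its window, Msmo1 and Hsd17b7 held 3, and Ebp and Dhcr7 held 2. For Dhcr7 both lay in the third of its RefSeq starts, which is inside the gene. By GENCODE M21 (mm10) the printed stretches of Lss, Nsdhl, Ebp and Sc5d lie outside the gene, and those of the other 5 fall in exons of transcripts that start farther upstream. 

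Compared per length, the members' mRNAs covered a wide range of levels in the 4 total control libraries. Msmo1 was the highest at 77 to 92.9 RPKM, above Dhcr7 at 47.5 to 56.8, Cyp51 at 48 to 55.5, Lss at 37.9 to 51.2 and Tm7sf2 at 30.3 to 42.4 RPKM. Then came Ebp at 21.3 to 24.6, Sc5d at 15.8 to 17.3, Nsdhl at 14.7 to 17.7 and Hsd17b7 at 7.22 to 8.16 RPKM. The ranges of Dhcr7 and Cyp51 overlapped, as did those of Cyp51 and Lss, of Lss and Tm7sf2, and of Sc5d and Nsdhl, and the other neighbours did not overlap.

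Knockdown against control in total lysate compared the level of these mRNAs under the Chtop siRNA and under the control pool. Lss, Cyp51, Tm7sf2, Msmo1, Nsdhl, Hsd17b7 and Dhcr7 fell, by 1.18-fold for Hsd17b7 to 2.23-fold for Tm7sf2. Ebp and Sc5d, whose promoter windows hold the same CCAAT box, did not pass the test, and no member rose. So 7 of 9 were lower, where 22.6% of all 9237 tested genes were called lower and 21.4% higher. The summed level of the 9 was 538 to 643 CPM in the control libraries and 361 to 399 CPM in the knockdown. The members' median log2 fold change was -0.51, against 0.01 over all genes. A call here is an adjusted p under 0.05 by the quasi-likelihood test of edgeR, with Benjamini-Hochberg adjustment over all genes and 4 libraries per condition over both lines. The p-values measure the spread between replicates, which the labels call biological. SE is the standard error of a log2 change. Values per library are CPM, given as mEx5 replicates 1 and 2 and then pEx5 replicates 1 and 2.

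Lss (ENSMUSG00000033105.12, chr10:76531588-76557138, plus strand, mm10), lanosterol synthase, forms the sterol ring system. It stood at 128, 158, 128 and 174 CPM in the control and at 80.5, 98.8, 80.9 and 101 CPM in the knockdown. Every knockdown library was below every control library (log2 change -0.72 with SE 0.12, edgeR adjusted p = 0.0011). Replicate 2 lay above replicate 1 in each of these 4 groups. Lss shares 381 exon bases with the antisense gene 4930483K19Rik, which is outside the count table, and without a stated strand setting the counts may hold reads of both.

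Cyp51 (ENSMUSG00000001467.5, chr5:4081145-4104746, minus strand), the cytochrome P450 that takes the first methyl group off lanosterol, went from 121, 129, 122 and 141 to 89.5, 97.8, 92 and 85.1 CPM. The groups did not overlap (log2 change -0.51 with SE 0.062, edgeR adjusted p = 2e-04). Its exons share 166 bases with Akap9 on the other strand, so a few reads of either gene may be counted for the other.

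Tm7sf2 (ENSMUSG00000024799.16, chr19:6062821-6068373, minus strand), a reductase of the double bond that Cyp51 leaves, had the deepest fall of the set. It held 25.1, 33.8, 24.3 and 31 CPM in the control and 12.3, 15.1, 11.1 and 13.1 CPM in the knockdown. The highest knockdown library was thus well under the lowest control library (2.23-fold, log2 change -1.16 with SE 0.12, edgeR adjusted p = 5.9e-05). Tm7sf2 shares 532 exon bases with Vps51 on the same strand, so how reads were split between these genes is uncertain.

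The next 3 enzymes remove the remaining pair of methyl groups. Msmo1 (ENSMUSG00000031604.10, chr8:64718139-64733792, minus strand), the methylsterol oxidase that opens this stage, went from 104, 100.5, 88.5 and 106 to 63.9, 56.9, 57.8 and 53.3 CPM. The groups lay far apart (1.74-fold, log2 change -0.80 with SE 0.078, edgeR adjusted p = 5.4e-05). Nsdhl (ENSMUSG00000031349.4, chrX:72918557-72958514, plus strand), the decarboxylating dehydrogenase, went from 24.8, 26.5, 22.6 and 22 to 17.2, 19.5, 17.7 and 17.4 CPM without overlap (log2 change -0.43 with SE 0.072, edgeR adjusted p = 0.0012). Hsd17b7 (ENSMUSG00000026675.12, chr1:169949535-169969241, minus strand), the ketoreductase that closes it, held 18.5, 18, 19.4 and 20.5 CPM in the control and 16.1, 16.1, 16.9 and 16.4 CPM in the knockdown. Its libraries did not overlap either, but the fall was the smallest that was called (log2 change -0.23 with SE 0.074, edgeR adjusted p = 0.028). That call was lost with any 1 of 5 libraries left out, namely mEx5 control replicates 1 and 2, mEx5 knockdown replicate 2, pEx5 control replicate 2 and pEx5 knockdown replicate 2, where the edgeR adjusted p was 0.060 to 0.088 at log2 values from -0.25 to -0.21.

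The last 3 enzymes move the ring double bond and finish the ring. Ebp (ENSMUSG00000031168.14, chrX:8185329-8193512, minus strand), the sterol isomerase, held 21.7, 24.2, 21.9 and 21.1 CPM in the control and 20.9, 19.2, 20.9 and 19.1 CPM in the knockdown. The lowest control library, at 21.1 CPM, was just above the highest knockdown library, at 20.9 CPM, and the difference did not pass (log2 change -0.17 with SE 0.096, edgeR adjusted p = 0.19). Sc5d (ENSMUSG00000032018.14, chr9:42251595-42264256, minus strand), the desaturase, held 23, 23.5, 22.3 and 21.5 CPM in the control and 23, 20.8, 20.3 and 20.6 CPM in the knockdown, with overlapping groups (log2 change -0.11 with SE 0.068, edgeR adjusted p = 0.23). Dhcr7 (ENSMUSG00000058454.15, chr7:143823145-143848410, plus strand), the reductase that yields cholesterol in 1 branch of the pathway, went from 87.5, 105, 89.1 and 107 to 44.4, 55, 43.7 and 52.1 CPM. The groups lay far apart, with the knockdown mean at 50.3% of the control mean (2.01-fold, log2 change -1.01 with SE 0.093, edgeR adjusted p = 3.9e-05).

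**Figure D1:**
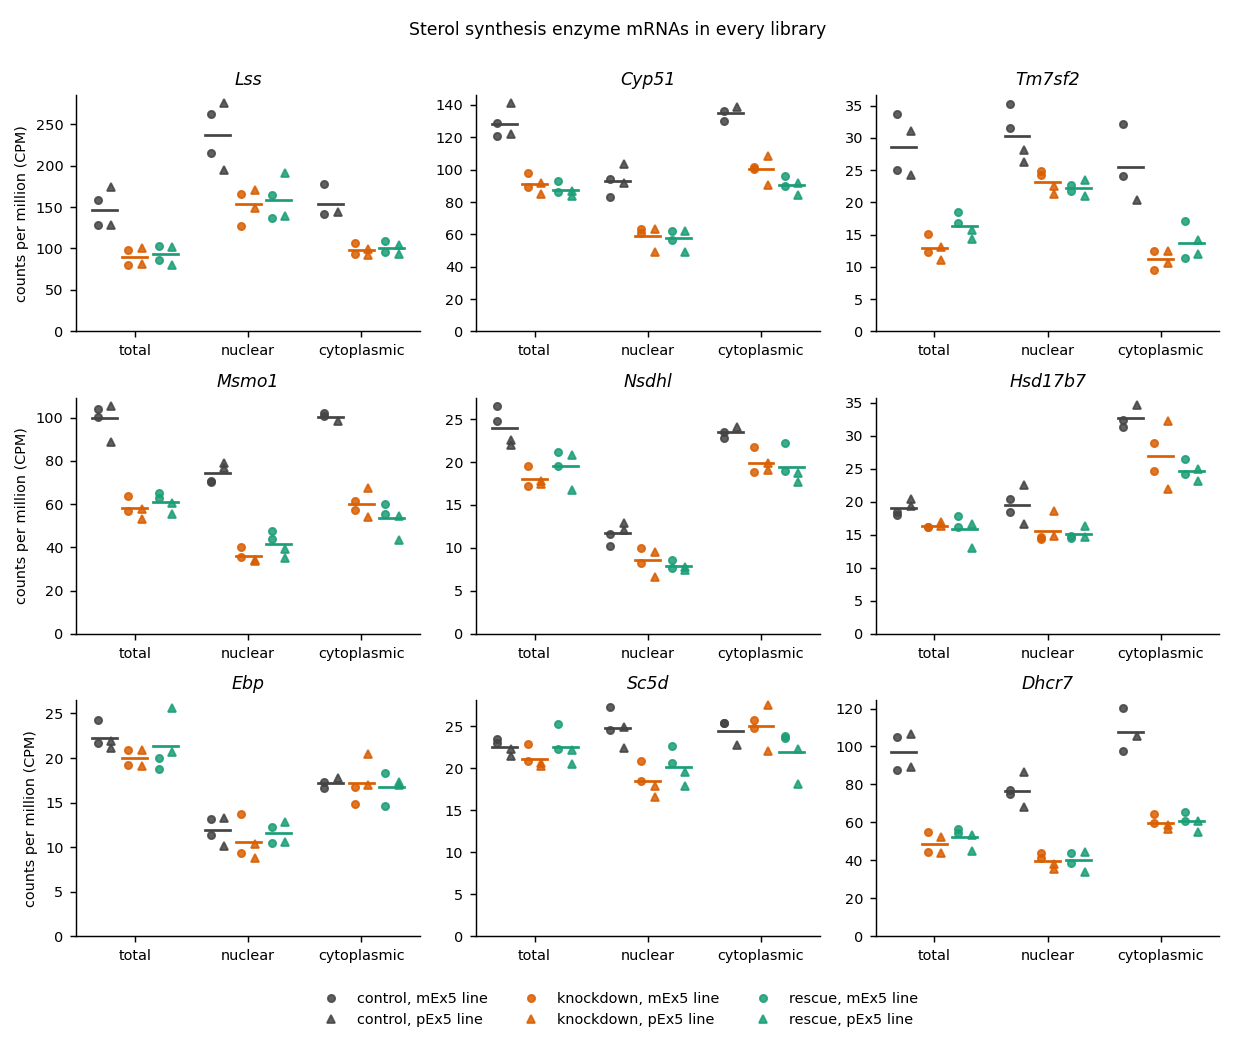
CPM (vertical axis, linear from 0) of each enzyme in total lysate, nuclei and cytoplasm, with 1 point per library (circles mEx5 line, triangles pEx5 line) and a bar at the mean of each condition. For Dhcr7, Msmo1, Cyp51, Lss, Tm7sf2 and Nsdhl all knockdown and rescue points lie under all control points of the same fraction. How many of all genes separate in this way was not counted. For Ebp and Sc5d the rescue points overlap the control points in every fraction.

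The lines were also compared in total lysate. In mEx5 alone the log2 fold changes ran from -1.11 (Tm7sf2) to -0.10 (Sc5d), and in pEx5 from -1.21 (Tm7sf2) to -0.12 (Sc5d). By line, 6 members had an unadjusted p under 0.05 in mEx5 and 7 in pEx5, against 37.6% and 38.7% of all genes. The difference of the knockdown effect between the lines was called for 0 of 9 members in each fraction by edgeR and by DESeq2. Over all genes edgeR called 0% in each. An unadjusted p under 0.05 was held by 0 of 9 members in each. For all genes this was 1.21%, 6.54% and 2.74% in total lysate, nuclei and cytoplasm. In total lysate these differences lay between -0.17 (Cyp51, SE 0.12) and 0.13 (Nsdhl, SE 0.14), pEx5 minus mEx5, with standard errors of up to 0.24. The members' differences ran wider in nuclei, from -0.39 to 0.17, and in cytoplasm, from -0.10 to 0.57, where the pEx5 control is 1 library. Between the uninduced lines under control siRNA, 0 of 9 members were called different in any fraction by either tool, against 0% of all genes called by edgeR in total lysate and cytoplasm and 0.13% in nuclei. At an unadjusted p under 0.05 this was 0, 1 and 0 members in total lysate, nuclei and cytoplasm. The shares of all genes were 7.64%, 9.31% and 6.11%. In the same order, the members' log2 differences between the uninduced lines ran from -0.21 to 0.11, from -0.28 to 0.21 and from -0.48 to 0.11.

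In nuclei 7 of 9 members were again lower after knockdown, but not the same 7, where 16% of 9239 genes were called lower and 15.4% higher. Sc5d now fell and Hsd17b7 missed the threshold. Msmo1 fell the most, from 70.7, 70.4, 76.9 and 79.2 to 40.3, 35.5, 34.1 and 33.6 CPM (2.02-fold, log2 change -1.01 with SE 0.08, edgeR adjusted p = 6.7e-05). Dhcr7 went from 74.9, 77, 68.4 and 86.8 to 41.4, 43.7, 35.4 and 38.3 CPM (log2 change -0.92 with SE 0.11, edgeR adjusted p = 0.00035). In both genes every knockdown library was far under every control library. Tm7sf2, which had led in total lysate, went from 31.5, 35.3, 26.3 and 28.1 to 24.9, 24.2, 21.3 and 22.6 CPM, groups that did not overlap but lay close (log2 change -0.34 with SE 0.082, edgeR adjusted p = 0.011). Sc5d went from 27.3, 24.6, 25 and 22.4 to 20.8, 18.5, 17.9 and 16.6 CPM, also without overlap (log2 change -0.39 with SE 0.09, edgeR adjusted p = 0.0088).

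Of the other members in nuclei, Cyp51 ranged over 83.3 to 103 CPM in the control and 49.1 to 63.3 in the knockdown (log2 change -0.62 with SE 0.11, edgeR adjusted p = 0.0024). Lss ranged over 195 to 275 and 127 to 171 CPM (log2 change -0.59 with SE 0.15, edgeR adjusted p = 0.015). Nsdhl, at 10.2 to 12.9 and 6.65 to 9.97 CPM, was the weakest nuclear call (log2 change -0.41 with SE 0.13, edgeR adjusted p = 0.039). The calls of Lss and Nsdhl leaned on single libraries. That of Lss was lost without mEx5 control replicate 2, mEx5 knockdown replicate 1, pEx5 control replicate 2 or pEx5 knockdown replicate 1 (edgeR adjusted p 0.055 to 0.062), and that of Nsdhl with any 1 of 8 of the 12 nuclear libraries left out, all but mEx5 knockdown replicate 1, pEx5 knockdown replicate 1 and both pEx5 rescue replicates (0.052 to 0.12). Hsd17b7 overlapped between the conditions (log2 change -0.29 with SE 0.12, edgeR adjusted p = 0.087), and in the fit blocked on replicate it was called, at -0.28 (edgeR adjusted p = 0.018). Ebp, with 10.2 to 13.2 and 8.79 to 13.7 CPM, overlapped as well (log2 change -0.15 with SE 0.15, edgeR adjusted p = 0.51).

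In cytoplasm the 7 members lower after knockdown were those of total lysate, where 20.9% of 9238 genes were called lower and 19.8% higher. Only 3 control libraries stand against 4 here. Tm7sf2 held 24.1, 32.2 and 20.4 CPM in the control and 9.53, 12.4, 10.7 and 12.5 CPM in the knockdown, with a wide gap (2.19-fold, log2 change -1.13 with SE 0.16, edgeR adjusted p = 0.00032). Dhcr7 went from 97.7, 120.0 and 105 to 59.7, 64.5, 56.5 and 58.8 CPM (log2 change -0.89 with SE 0.085, edgeR adjusted p = 2.5e-05), and Msmo1 from 102, 101 and 98.5 to 61.5, 57.5, 67.7 and 54.2 CPM (log2 change -0.78 with SE 0.10, edgeR adjusted p = 0.00015). The groups of both were far apart. Lss ranged over 141 to 177 CPM in the control and 91.6 to 107 in the knockdown (log2 change -0.68 with SE 0.094, edgeR adjusted p = 0.00024). Cyp51 ranged over 130.3 to 139 and 90.8 to 109 CPM (log2 change -0.49 with SE 0.08, edgeR adjusted p = 0.00068). Neither gene's groups overlapped. Nsdhl at -0.30 (SE 0.095, edgeR adjusted p = 0.026) and Hsd17b7 at -0.36 (SE 0.13, edgeR adjusted p = 0.042) were called near the threshold. Nsdhl ranged over 22.8 to 24.1 CPM in the control and 18.9 to 21.7 in the knockdown, without overlap. The groups of Hsd17b7, at 31.3 to 34.7 and 21.9 to 32.3 CPM, did overlap. Hsd17b7 lost its call with any 1 of 8 of the 10 libraries left out in turn, all but replicate 1 of each knockdown group (edgeR adjusted p 0.060 to 0.12), and reached -0.22 without pEx5 knockdown replicate 2. Nsdhl lost its call without mEx5 control replicate 1 or mEx5 knockdown replicate 1 (0.070 and 0.10). With library totals as the only scaling neither was called (0.056 and 0.069).

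Ebp and Sc5d were not called in cytoplasm. Sc5d held 25.4, 25.4 and 22.8 CPM in the control and 25.7, 24.8, 27.6 and 22.1 CPM in the knockdown, fully overlapping (log2 change 0.01 with SE 0.11, edgeR adjusted p = 0.97). Ebp was at 16.6 to 17.8 and 14.8 to 20.4 CPM (log2 change -0.07 with SE 0.11, edgeR adjusted p = 0.65). In the same libraries the nuclear RNA Malat1 was at 44.4 to 56.9 CPM in the control and 63.4 to 77.7 CPM in the knockdown, and mitochondrial transcripts made up 1.90% to 2.09% and 2.27% to 3.31% of counts. Neither pair of ranges overlapped, and their part in the cytoplasmic results was not tested.

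Rescue against knockdown asked whether induced Chtop brought the mRNAs back. It did not raise any member past the threshold: 0 of 9 were called higher or lower in total lysate, nuclei or cytoplasm, by edgeR or by DESeq2. Few genes of any kind were, with 0.0217%, 0.0108% and 0.0433% called by edgeR. At an unadjusted p under 0.05 there were 1, 0 and 0 members, against 7.15%, 8.35% and 9.59% of all genes. The knockdown and rescue libraries overlapped for every member in every fraction, which was not counted over all genes. The members' log2 fold changes ran from -0.07 to 0.33 in total lysate, from -0.15 to 0.17 in nuclei and from -0.20 to 0.27 in cytoplasm.

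Tm7sf2 had the highest rescue estimate in total lysate, at 16.9, 18.5, 14.3 and 15.7 CPM. Of the 4 libraries 3 were above every knockdown library, and pEx5 replicate 1 lay within the knockdown range. The log2 fold change was 0.33 (SE 0.12, edgeR adjusted p = 0.68). In the fit blocked on replicate it was called, at 0.33 (SE 0.076, edgeR adjusted p = 0.038), and 1 of 9 members was then higher in total lysate and 0 in nuclei, among 170 and 632 genes called in either direction. The others stood at or near their knockdown levels. Dhcr7 stood at 54.5, 56.5, 45.1 and 53.3 CPM (log2 change 0.09 with SE 0.093, edgeR adjusted p = 0.82), Msmo1 at 65.2, 63, 55.3 and 60.5 CPM (log2 change 0.06 with SE 0.077, edgeR adjusted p = 0.86) and Lss at 86.6, 102, 80.5 and 102 CPM (log2 change 0.03 with SE 0.12, edgeR adjusted p = 0.96). Cyp51 at 86.1, 92.9, 83.5 and 87 CPM and Nsdhl at 19.5, 21.2, 16.7 and 20.8 CPM also lay among their knockdown libraries or beside them.

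In nuclei Msmo1 had the highest rescue estimate, with 47.6, 44, 39.2 and 35 CPM (log2 change 0.17 with SE 0.08, edgeR adjusted p = 0.61), and Nsdhl the lowest at -0.15 (SE 0.14, edgeR adjusted p = 0.8). Dhcr7 was at 38.7, 43.7, 33.8 and 44.2 CPM, Tm7sf2 at 21.8, 22.7, 20.9 and 23.6 CPM and Sc5d at 22.7, 20.7, 17.9 and 19.6 CPM. Each of these groups overlapped its knockdown group.

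In cytoplasm Tm7sf2 was at 11.4, 17.1, 12 and 14.1 CPM (log2 change 0.27 with SE 0.15, edgeR adjusted p = 0.51), Dhcr7 at 60.8, 65.6, 54.7 and 61 CPM and Msmo1 at 55.5, 60.2, 43.5 and 54.5 CPM (log2 change -0.18 with SE 0.092, edgeR adjusted p = 0.51). The cytoplasmic rescue estimates were negative for 6 of 9 members. They rested in part on pEx5 knockdown replicate 2: without it, Cyp51 was called lower in the rescue than in the knockdown, at -0.22 (edgeR adjusted p = 0.044), and so was Msmo1, at -0.26 (0.050 after rounding). The count over all genes rose from 4 to 1305 without that library. The difference of the rescue effect between the cDNA without and with exon 5 was called for 0 of 9 members in each fraction. That held by edgeR, with 0% of all genes called in each, and by DESeq2. An unadjusted p under 0.05 was held by 0 of 9 members in each. For all genes this was 1.06%, 0.281% and 3.12% in total lysate, nuclei and cytoplasm. In total lysate these differences lay between -0.21 (Hsd17b7, SE 0.15) and 0.30 (Ebp, SE 0.19), and for Tm7sf2 the rescue was 0.34 in mEx5 and 0.31 in pEx5 cells. The members' differences ran from -0.13 to 0.31 in nuclei and from -0.30 to -0.02 in cytoplasm.

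Rescue libraries were also set against the control libraries. In total lysate 7 of 9 members were lower, the same 7 as in the knockdown, where 19% of all genes were called lower and 18.3% higher. In nuclei 8 were lower, all but Ebp, against 12.2% of genes lower and 11.5% higher, and in cytoplasm 7, against 18.4% and 17.2%. No member was higher in any fraction. These counts reuse the control libraries of the knockdown comparison, so both sets of calls share them. The rescue means were 54.0% of the control mean for Dhcr7, 61.2% for Msmo1, 57.3% for Tm7sf2, 63.2% for Lss, 68.1% for Cyp51, 81.5% for Nsdhl and 83.3% for Hsd17b7 in total lysate. Chtop itself was above every control library in the same rescue libraries.

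The log2 change of Dhcr7 from control was -0.92, -0.93 and -0.88 in total lysate, nuclei and cytoplasm, and that of Msmo1 -0.73, -0.85 and -0.97. All 6 were called, with edgeR adjusted p of at most 6.3e-04. Rescue and control libraries did not overlap in any fraction for 7 members, and overlapped in each for Ebp and Sc5d. How many of all genes were separated in this way was not counted, so the 7 cannot be weighed against them. The nuclear count of calls leaned on single libraries. It was 5 without mEx5 control replicate 1 or 2, mEx5 rescue replicate 1 or pEx5 rescue replicate 1, and the weakest calls, Sc5d at -0.29 (SE 0.091, edgeR adjusted p = 0.04) and Hsd17b7 at -0.36 (SE 0.12, edgeR adjusted p = 0.049), were lost with any 1 of 11 and 9 of the 12 nuclear libraries left out. The exceptions were mEx5 knockdown replicate 2 for Sc5d, and pEx5 control replicate 2 and both pEx5 knockdown replicates for Hsd17b7. With library totals as the only scaling, Hsd17b7 was also lost in nuclei (0.050 after rounding), and with all 35 libraries in 1 fit in total lysate (-0.27, edgeR adjusted p = 0.055). The cytoplasmic count was 6 without mEx5 rescue replicate 1, where Nsdhl was lost (0.057), and 5 without pEx5 rescue replicate 1, where Nsdhl and Hsd17b7 were (0.053 and 0.052).

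**Figure D2:**
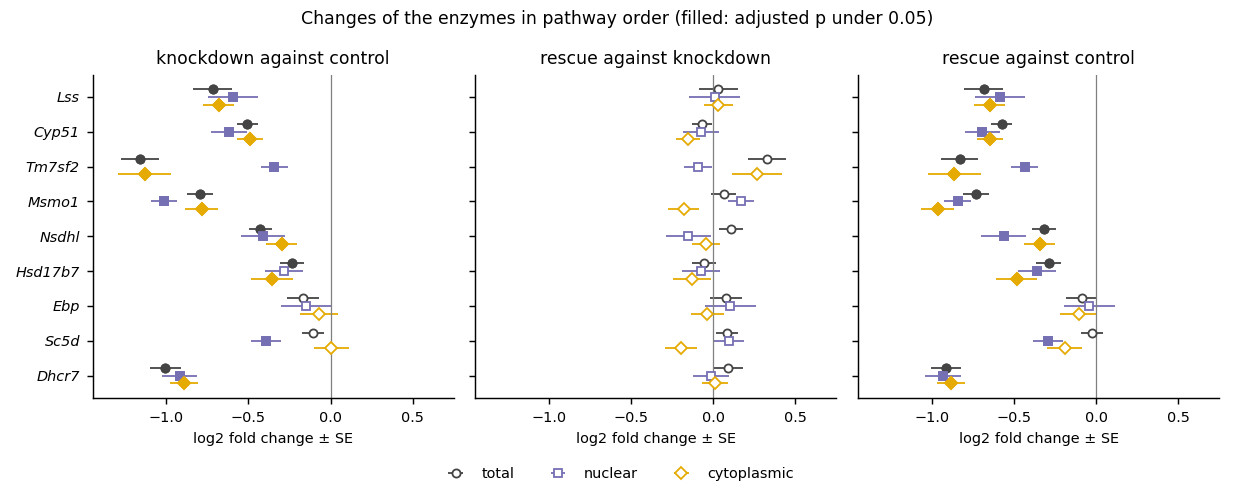
Log2 fold changes (horizontal axis) with bars of 1 standard error for each enzyme in pathway order, in total lysate (circles), nuclei (squares) and cytoplasm (diamonds), with filled symbols for an edgeR adjusted p under 0.05. In the panels against control every value but that of Sc5d in cytoplasm after knockdown (0.01) lies below 0, and the middle panel shows rescue minus knockdown between -0.20 and 0.33 with no filled symbol.

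Other genes of the pathway were read from lists. All 10 genes of the mevalonate arm were lower after knockdown in total lysate, where 22.6% of all genes were, with a median of -0.67. Pmvk, which adds a phosphate to mevalonate phosphate, was at -1.31 (SE 0.13, edgeR adjusted p = 5.9e-05), and Mvd, the decarboxylase after it, at -0.87 (SE 0.089, edgeR adjusted p = 7e-05). In nuclei and cytoplasm 9 of 10 were lower. Mvk missed the threshold in nuclei, at -0.40 (SE 0.14, edgeR adjusted p = 0.056), and Sqle, which makes the squalene epoxide that Lss uses, in cytoplasm at -0.09 (SE 0.071, edgeR adjusted p = 0.33). Mvk and Sqle were named here after their values were seen.

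Of 13 tested genes of SREBP control and cholesterol transport, 5 were lower in total lysate and 0 higher, against 22.6% and 21.4% of all genes, and the list's median was -0.23. The sterol carrier Stard4 was at -0.56 (SE 0.079, edgeR adjusted p = 0.00044) and the SREBP-retaining protein Insig1 at -0.41 (SE 0.10, edgeR adjusted p = 0.0081). The counts of lower genes were 7 in nuclei and 5 in cytoplasm, against 16% and 20.9% of all genes, with Stard4 at -0.69, the receptor Scarb1 at -0.63 and the transporter Npc1 at -0.56 in nuclei, and Stard4 and the carrier Npc2 at -0.51 and -0.48 in cytoplasm. The mRNA of Srebf2, the SREBP gene of this pathway, was named after its value was seen, at -0.28 (SE 0.12, edgeR adjusted p = 0.095) in total lysate and -0.45 (SE 0.098, edgeR adjusted p = 0.0064) in nuclei. Mylip, Nr1h3, Abca1, Abcg1 and Soat1 of this list have no counts in the count table used here and stood at no more than 4.81 RPKM in any library.

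The donors of electrons and partners of the enzymes were mixed. Of 10 tested, 5 were lower in total lysate and 2 higher, against 22.6% and 21.4% of all genes, so the share higher was near that of all genes. The list's median was -0.20. Por, which feeds electrons to Cyp51 and other P450 enzymes, was at -0.56 (SE 0.069, edgeR adjusted p = 0.00021), the reductase Cyb5r1 at -0.66 and cytochrome b5, Cyb5a, which feeds Msmo1 and Sc5d, at -0.55. The 2 that rose were named after their values were seen. They were Erg28, a scaffold of the demethylating enzymes, at 0.41 (SE 0.11, edgeR adjusted p = 0.012), and Lbr, a nuclear envelope protein with the same reductase activity as Tm7sf2, at 0.23 (SE 0.069, edgeR adjusted p = 0.022). In nuclei 4 were lower and 0 higher, against 16% and 15.4% of all genes, with Cyb5a at -0.81. In cytoplasm 5 were lower and 2 higher, against 20.9% and 19.8%, with Erg28 at 0.60. Rescue against knockdown was called for 0 genes of these 3 lists in any fraction.

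**Figure D3:**
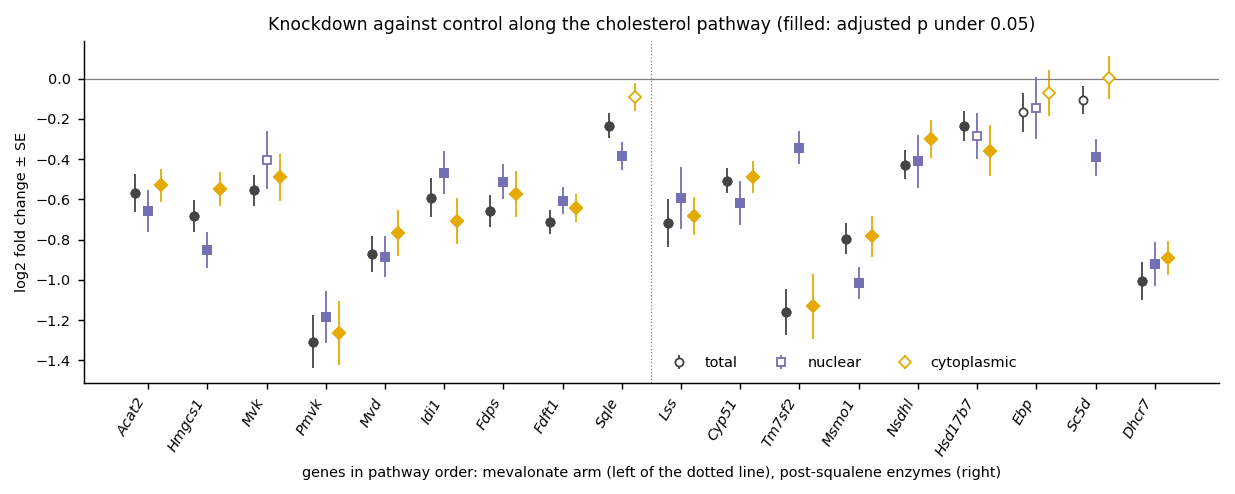
Log2 fold change of knockdown against control (vertical axis, bars of 1 standard error) for 9 mevalonate-arm genes and the 9 post-squalene enzymes in pathway order (horizontal axis), by fraction, with filled symbols for an edgeR adjusted p under 0.05. Values sit between -1.31 (Pmvk in total lysate) and 0.01 (Sc5d in cytoplasm), and Ebp is the gene with no filled symbol in any fraction.

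How alike the members varied was described by the correlation of their log2 CPM, centred on the mean of each fraction, over all 35 libraries. With the mean of the other 8 members, Pearson's r was 0.96 for Dhcr7, 0.94 for Msmo1 and 0.92 for Cyp51. It was 0.86 for Lss, 0.84 for Nsdhl, 0.81 for Tm7sf2 and 0.72 for Hsd17b7, and only 0.57 for Sc5d and 0.25 for Ebp. Outside the set, genes among the nearest to the members' mean were Idh1, which makes NADPH in the cytosol, with r = 0.97, Hmgcs1, the synthase that opens the mevalonate arm, and the phosphatidylinositol synthase Cdipt with 0.96 each, and the kinesin-associated Kifap3 with 0.96. The points share cultures, libraries and the 3 conditions, so these values describe this experiment only.

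Nuclei against cytoplasm under control siRNA compared the level of each mRNA between the libraries of these compartments. Without a spike-in such a ratio places a gene relative to the other mRNAs. It does not give the part of its molecules in either compartment. Of the 9 members, 6 were lower in nuclei, where 36.1% of genes were, and 2 were higher, where 33.8% were. Nsdhl was the most cytoplasmic, at -1.01 (SE 0.12, edgeR adjusted p = 1.7e-06), with 10.2 to 12.9 CPM in nuclei and 22.8 to 24.1 CPM in cytoplasm. Hsd17b7 at -0.76, Cyp51 at -0.54, Ebp at -0.53, Dhcr7 at -0.47 and Msmo1 at -0.42 followed, with edgeR adjusted p of at most 0.0045. Lss was the most nuclear, at 0.66 (SE 0.15, edgeR adjusted p = 0.0012), with 195 to 275 and 141 to 177 CPM. Tm7sf2 was at 0.34 (SE 0.14, edgeR adjusted p = 0.042), a call lost without nuclear mEx5 control replicate 2, nuclear pEx5 control replicate 2 or cytoplasmic mEx5 control replicate 1 (0.11, 0.090 and 0.15). Sc5d did not differ beyond its error, at 0.05 (SE 0.10, edgeR adjusted p = 0.66).

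Both compartments came from the same cultures, but the fit took them as separate libraries and did not pair them. The change of this ratio after knockdown was tested next. It was called for 1 of 9 members, Tm7sf2, which rose by 0.80 (SE 0.19, edgeR adjusted p = 0.025), where 3.83% of genes were called higher and 1.31% lower. With the culture as the block, which pairs the compartments, no member gained or lost this call. Tm7sf2 ranked 73rd highest of 9239 genes in this change. Its cytoplasmic level fell to 44.2% of control while its nuclear level fell to 76.7%, as the library values above show. By line the ratio rose by 1.03 in mEx5 and 0.58 in pEx5, neither called alone (edgeR adjusted p = 0.070 and 0.47), where 0.844% and 0.649% of genes were called. The pooled call was lost without nuclear mEx5 control replicate 1, nuclear pEx5 control replicate 1, nuclear pEx5 knockdown replicate 2, cytoplasmic mEx5 control replicate 2, cytoplasmic mEx5 knockdown replicate 1 or cytoplasmic pEx5 knockdown replicate 1, at values of 0.69 to 0.77 and edgeR adjusted p of 0.052 to 0.083. The reads it may share with Vps51, and the higher cytoplasmic Malat1 and mitochondrial values given above touch this result too, and their part was not tested.

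Sc5d moved the other way without passing, at -0.39 (SE 0.14, edgeR adjusted p = 0.12): its nuclear level was 74.4% of control and its cytoplasmic level 102%. It was called, at -0.48 with library totals as the only scaling (edgeR adjusted p = 0.046), at -0.40 with all 35 libraries in 1 fit (0.045) and at -0.47 without cytoplasmic pEx5 knockdown replicate 2 (0.048). The other 7 members lay between -0.22 (Msmo1) and 0.10 (Lss), with standard errors of 0.13 to 0.20. In the authors' deposited table the nuclear to cytoplasmic log2 ratio of Tm7sf2 was 0.91 higher in the knockdown than in the control and is marked as an increase, and that of Sc5d was 0.49 lower and is marked as a decrease, at a limit of 0.3. The authors' deposited table marks no other member in this comparison, and 16.8% and 13.4% of its 9239 genes as increased and decreased. It also marks Lss and Dhcr7, 2 of 9 members, as overlapping Chtop iCLIP (sites crosslinked to Chtop, source not stated), against 48.5% of all genes in that table.

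The rescue moved the ratio of 0 of 9 members past the threshold by edgeR or DESeq2, where 0.0216% of genes were called by edgeR. An unadjusted p under 0.05 was held by 2 of 9 members, against 2.7% of all genes. The estimates were -0.36 for Tm7sf2 (SE 0.18), 0.35 for Msmo1 (SE 0.13) and 0.30 for Sc5d (SE 0.13). For Tm7sf2, Msmo1 and Sc5d these point against the estimate in the knockdown, whose libraries they share. Of those knockdown estimates only that of Tm7sf2 had been called.

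**Figure D4:**
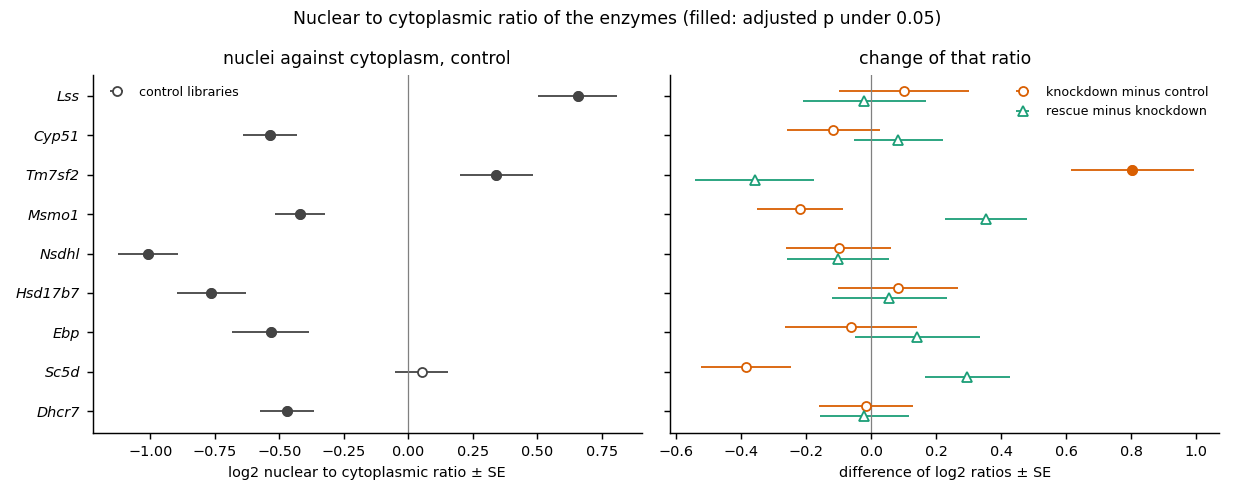
Left, log2 nuclear to cytoplasmic ratio in control libraries (horizontal axis, bars of 1 standard error) for each enzyme in pathway order. Right, the change of that ratio for knockdown minus control (circles) and rescue minus knockdown (triangles), with filled symbols for an edgeR adjusted p under 0.05, of which Tm7sf2 after knockdown, at 0.80, is the only one on the right.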

How the data were processed

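Poly(A) RNA libraries of total lysate, nuclei and cytoplasm were grouped by fraction, line and siRNA or doxycycline treatment as the labels give them. The deposited counts are whole numbers per gene with no normalization; Salmon 0.14.1, DESeq2 and the mouse build mm10 are named per the submitters' processing notes, without roles, so the counts may be rounded Salmon estimates. RPKM values (read density per length of mRNA, scaled to depth) were deposited by the authors in a second table, and 1 of its columns has no sample here and was not used. The authors' deposited table of log2 nuclear to cytoplasmic ratios and their changes gives no replicates. How its limit of 0.3 was chosen is not stated.

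From the counts, edgeR 4.0.16 in R 4.3.3 was fitted to each fraction separately and to nuclei with cytoplasm for the ratio, with filterByExpr by group, TMM scaling and robust quasi-likelihood tests, adjusted by Benjamini-Hochberg over all tested genes. The estimate for both lines is the mean of the line estimates. The SE was taken from the log2 change and its F statistic. CPM were counts scaled to the library total. RPKM was used only to compare levels between genes and for markers. Alternatives were DESeq2 1.42.0, library totals, RLE scaling, no filter, all 35 libraries in 1 fit, a block by replicate number or by culture, and single libraries left out. Code was tested on simulated data.

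Same-numbered cultures deviated together in total lysate (correlation of residuals 0.35 to 0.80 over 15 pairs) and nuclei (0.53 to 0.73), so the blocked value stands beside a result there where it changes a call. No replicate library was a copy of another, since their counts differed beyond sampling noise.

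The members and gene lists were chosen with earlier results of these data known. Genes outside the members were named as the 3 largest called changes of each list, as the 5 genes nearest to the members in pattern, or said to be named after their values were seen. 1 further gene of the set and some genes of the lists that this rule selects are not reported here. Promoter sequences are RefSeq's for GRCm38.p6, and gene positions GENCODE M21 (mm10).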

Additional observations from a re-analysis of the deposited data

Results flagged for a closer look

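The change of the nuclear to cytoplasmic ratio of Tm7sf2 after knockdown was 0.80 (log2, SE 0.19, edgeR adjusted p = 0.025), so its estimated knockdown effect differed between nuclei and cytoplasm. The knockdown change was -0.34 in nuclei and -1.13 in cytoplasm. The ratio moved in the same direction in both lines, by 1.03 in mEx5 and 0.58 in pEx5, but was called in neither alone. The pooled call was lost in 6 of 22 fits with 1 library left out. The part of reads it may share with Vps51 was not tested. No other member had a difference between fractions past the threshold.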

How the results depend on the processing

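Member estimates were tallied for the comparisons over both lines, without those by line or between lines. Under settings that keep every library, 852 of 864 kept their side of the threshold, 6 lost a call and 6 gained one. With 1 library left out, 2073 of 2142 kept their side, 65 lost a call and 4 gained one. Those that kept their side include estimates called in neither fit. In both sets 0 estimates that were called, before or after the change of setting, turned in direction. Direction was not followed for estimates called in neither fit. With the estimates by line and between lines added, leaving out 1 library kept 7158 on their side, while 215 lost a call and 25 gained one. Blocking on replicate number gave 1 member higher in total lysate (rescue against knockdown) in place of 0, and in the comparisons over both lines changed no other call of a member beside Hsd17b7 in nuclei (knockdown) and the rescue against control ratio of Tm7sf2 (0.50, edgeR adjusted p = 0.024). In cytoplasm the correlations of same-numbered cultures reached lower, from 0.041 to 0.66 over 10 pairs. Scaling by library totals, or all 35 libraries in 1 fit, gave 2 members called for the knockdown shift of the ratio in place of 1, and leaving out 1 library gave 0 to 2. For rescue against control in nuclei, 8 members were called, and 5 to 7 with 1 library left out, and in cytoplasm 7 and 5 to 7. Library totals also ended the knockdown call of Hsd17b7 in total lysate (0.063), as did all 35 libraries in 1 fit (0.12). The cytoplasmic pEx5 control was its group's only library and was not left out. Causes were not tested.

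Counts over all genes moved more. Under the block, knockdown calls in nuclei went from 2903 to 5123, rescue against control from 3442 to 5352 in total lysate and from 2191 to 4604 in nuclei, rescue against knockdown from 2 to 170, 1 to 632 and 4 to 7 in total lysate, nuclei and cytoplasm, and the knockdown and rescue shifts of the ratio from 475 to 1188 and from 2 to 4. With the culture as the block these shifts had 350 and 2 genes. Between the uninduced lines the block gave 317, 812 and 8 genes in place of 0, 12 and 0, and for the line difference of the knockdown in nuclei 159 in place of 0. DESeq2 gave 22, 79 and 21 genes for rescue against knockdown, 93, 132 and 34 between the uninduced lines, 1 for the line difference of the knockdown in nuclei, 7 for that of the rescue in cytoplasm, and 792 and 4 for the shifts. All 35 libraries in 1 fit gave 3306 genes for rescue against control in nuclei, 5 and 37 for rescue against knockdown in total lysate and nuclei, 22, 81 and 3 between the uninduced lines and 787 for the knockdown shift. DESeq2 size factors in edgeR, or no filter, gave 7 between the uninduced lines in total lysate. With 1 library left out the knockdown shift had 172 to 544 genes, the rescue shift 0 to 3, rescue against control in nuclei 1256 to 2069, rescue against knockdown in cytoplasm 1 to 1305 and in total lysate 1 to 2. The uninduced lines then had up to 7 genes in total lysate, 8 in nuclei and 18 in cytoplasm, and the line differences in cytoplasm up to 15 (knockdown) and 274 (rescue).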

Other observations

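Rescue against control was also fitted for the nuclear to cytoplasmic ratio, which no comparison of the report uses. For Tm7sf2 the change was 0.44 (log2, SE 0.19, edgeR adjusted p = 0.18), and it was called with the replicate block (0.50, SE 0.14, edgeR adjusted p = 0.024). For Sc5d it was -0.09 (SE 0.14, 0.73).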
